A study of Mus musculus with 9 samples.

Results

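The 8 genes described here encode myosin light chains, and they were chosen by symbol: Myl1, Mylpf, Myl4, Myl6, Myl6b, Myl9, Myl12a and Myl12b. All 8 were present in every count table, among 47728 genes listed and 23919 with at least 1 read, and all 8 passed the filter on low counts. They were followed in C2C12, a mouse myoblast line that can be made to stop dividing and fuse into myotubes. The 3 genotypes were an Fkbp4 knockdown, an Fkbp5 knockdown and a control called Neg in the sample titles, and each was sampled at days 0, 3 and 5 of differentiation. That gave 9 libraries, 1 per genotype and day, so no condition was repeated and the days stood in for replicates. The labels do not give the method of knockdown, what the control cells received, or whether a genotype is 1 clone or a pool. All genotypes grew in 10% serum before day 0, and differentiation began with 1% insulin-transferrin-selenium. The labels also name medium with HS, which they do not spell out, for the later changes of medium, so the day 3 and day 5 libraries follow that treatment as well. Fkbp4 and Fkbp5 encode immunophilins that act as partners of the chaperone Hsp90.

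A myosin motor is built from heavy chains, and the neck of each heavy chain binds an essential and a regulatory light chain. In fast skeletal muscle the essential chain comes from Myl1, which makes a long and a short form from alternative promoters, and the regulatory chain comes from Mylpf. Myl4 encodes the essential chain of embryonic skeletal muscle and of the atrium. Outside the sarcomere, Myl6 supplies the essential chain of smooth muscle and non-muscle myosin, Myl9 the smooth muscle regulatory chain, and Myl12a and Myl12b the non-muscle regulatory chains. Myl6b encodes an essential chain found in slow skeletal muscle and in non-muscle cells, and it was placed with the non-muscle chains here. Phosphorylation of a regulatory chain by a light chain kinase switches non-muscle and smooth muscle myosin on and tunes force in skeletal muscle.

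The libraries held between 3932372 and 5568486 counted reads, and the levels below are CPM, the field's usual measure of a gene's reads relative to the library's total, after adjustment for library composition. Fkbp4 measured 60.2, 27.0 and 24.0 CPM at days 0, 3 and 5 in its knockdown against 240.6, 142.9 and 137.7 CPM in the control (log2 difference -2.28, edgeR quasi-likelihood adjusted p = 1.9e-05). Fkbp5 measured 4.47, 3.18 and 4.61 CPM in its knockdown against 20.1, 7.34 and 14.8 CPM in the control (log2 difference -1.72, edgeR adjusted p = 0.00825). Of the 6 skeletal muscle markers, Myod1, Myf5, Myog, Des, Ckm and Acta1, all had reads in every library, and their summed level went from 1113 to 1187 CPM at day 0 to 4770 to 6097 CPM at day 3 and 8066 to 9675 CPM at day 5. Summed markers of adipocytes stayed at or below 2.41 CPM, of immune and endothelial cells at or below 4.64 CPM, of cardiac muscle at or below 18.3 CPM and of smooth muscle at or below 37.5 CPM. Of 4 fibroblast markers, Pdgfra, Thy1, Dcn and Lum, Thy1 had at most 1 read. Of the 3 tested, 2 rose to day 3 and 1 fell, where 26.7% of genes tested rose and 26.1% fell. Summed, the 4 fibroblast markers lay at 20.8 to 39.7 CPM at day 0. Their sum was 301.7 to 548.8 CPM at day 3 and 351 to 806 CPM at day 5. Of that sum, Dcn measured 11.9 to 27.6 CPM at day 0 and 297.3 to 794.6 CPM later. Dcn rose by 4.73 to day 3 on the log2 scale (edgeR adjusted p = 5.56e-08) and was higher by 1.07 in the Fkbp5 than in the Fkbp4 knockdown (edgeR adjusted p = 0.00508), and its part in the results on the light chains was not tested. Reads of mitochondrially encoded genes made up 1.78% to 5.01% of 8 libraries and 10.1% of the Fkbp5 knockdown at day 5.

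The genes lie on 6 chromosomes of GRCm38, by GENCODE release 21. Myl1 is at chr1:66924295-66945404 on the minus strand, Mylpf at chr7:127208890-127214298 on the plus strand, Myl4 at chr11:104550663-104595753 on the plus strand and Myl9 at chr2:156775420-156781658 on the plus strand. Myl6 (chr10:128490860-128494145) and Myl6b (chr10:128494157-128498685) are neighbours on the minus strand of chromosome 10 with 11 bases between them. Myl12b (chr17:70973133-70990890) and Myl12a (chr17:70993656-71002878) share the minus strand of chromosome 17 with 2765 bases between them. Because reads may be split between near-identical sequences, every stretch of 31 bases in each gene's transcripts was looked up in the transcripts of all other counted genes. None of the stretches of Myl1 or Mylpf occurred elsewhere, and those of Myl9 (0.41%), Myl4 (0.62%) and Myl6b (1.83%) rarely did. The figure was 11.4% for Myl6, mostly in its processed pseudogenes Gm5526, Gm10080 and Gm8894, 12.2% for Myl12b and 15.3% for Myl12a. Myl12a and Myl12b share such stretches with each other and with Gm6517, and Myl12a also shares some with Myom1. Levels of Myl6, Myl12a and Myl12b are therefore less certain than those of the muscle chains.

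The start sites of the 4 members that rose during differentiation are shown first, followed by that of Myl12a, which did not pass the test, so that their sequences can be compared. Each is the RefSeq window on GRCm38.p6 from 250 bases before to 50 bases after a RefSeq start site, on the gene's own strand, and capitals mark the E-box CANNTG, the letters bound by the myogenic factors Myod1 and Myog. The Mylpf start site lies 2718 bases inside the GENCODE gene, at the start of one of its transcripts. That of Myl1 lies 348 bases inside, 87 bases from the nearest transcript start, at the upstream end of the gene, so the window of the downstream promoter of the short form is not shown. The Myl12a site lies 345 bases inside, and those of Myl4 and Myl6b are at the GENCODE gene starts.
Myl1, chr1:66945007-66945306, minus strand: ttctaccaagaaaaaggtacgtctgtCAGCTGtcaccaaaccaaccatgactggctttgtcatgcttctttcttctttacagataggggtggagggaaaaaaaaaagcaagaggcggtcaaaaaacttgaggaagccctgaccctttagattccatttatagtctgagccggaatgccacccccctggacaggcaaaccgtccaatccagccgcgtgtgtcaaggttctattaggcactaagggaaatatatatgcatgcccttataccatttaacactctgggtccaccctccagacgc
Mylpf, chr7:127211358-127211657, plus strand: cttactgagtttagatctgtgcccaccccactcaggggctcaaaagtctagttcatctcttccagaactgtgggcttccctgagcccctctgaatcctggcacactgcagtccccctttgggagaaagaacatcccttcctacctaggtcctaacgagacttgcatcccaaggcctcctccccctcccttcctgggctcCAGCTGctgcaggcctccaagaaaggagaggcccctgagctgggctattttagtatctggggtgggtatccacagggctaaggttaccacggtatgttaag
Myl4, chr11:104550413-104550712, plus strand: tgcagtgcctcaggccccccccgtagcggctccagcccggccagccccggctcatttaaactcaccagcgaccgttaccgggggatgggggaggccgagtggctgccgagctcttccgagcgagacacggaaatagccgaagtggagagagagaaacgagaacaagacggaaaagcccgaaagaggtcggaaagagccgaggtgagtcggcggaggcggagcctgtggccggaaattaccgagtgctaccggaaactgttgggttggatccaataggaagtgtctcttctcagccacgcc
Myl6b, chr10:128498636-128498935, minus strand: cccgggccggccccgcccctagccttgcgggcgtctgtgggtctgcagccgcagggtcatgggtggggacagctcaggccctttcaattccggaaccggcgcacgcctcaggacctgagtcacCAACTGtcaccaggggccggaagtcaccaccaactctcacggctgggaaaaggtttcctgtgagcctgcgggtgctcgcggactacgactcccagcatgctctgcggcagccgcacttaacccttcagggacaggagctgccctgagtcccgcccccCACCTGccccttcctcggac
Myl12a, chr17:71002484-71002783, minus strand: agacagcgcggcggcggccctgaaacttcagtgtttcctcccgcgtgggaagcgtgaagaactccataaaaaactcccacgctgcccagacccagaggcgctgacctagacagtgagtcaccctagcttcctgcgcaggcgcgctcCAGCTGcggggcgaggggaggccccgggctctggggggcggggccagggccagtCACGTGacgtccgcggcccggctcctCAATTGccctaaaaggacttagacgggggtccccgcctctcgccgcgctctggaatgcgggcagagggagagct

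The E-box variant CAGCTG stood 224 bases before the Myl1 start and 51 bases before the Mylpf start. Myl6b held CAACTG 127 bases before its start and CACCTG in the transcribed part, and the Myl4 window held no E-box. Only that 1 window was searched for Myl4, which has 8 transcripts, so any other start site of the gene was not examined. Myl12a also held CAGCTG 104 bases before its start together with a further 2 E-boxes. Among 32851 promoter windows of the same length, 72.3% held CANNTG and 16.3% held CAGCTG, searched on both strands, and the first motif includes the second. The CArG box, which serum response factor binds, occurred in 1.63% of all windows, in the Myl9 window 161 bases before the start and in 1 of 2 Myl6 windows 50 bases before the start. The MEF2 box occurred in 3.19% of all windows and in none of the 9 windows of the members. These matches describe letters only, and no binding was measured.

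At day 0 the light chains were mainly of the non-muscle kind, and by day 3 the muscle chains outnumbered them in reads in all 3 genotypes. Myl1, Mylpf and Myl4 together made up 4.25% of the reads of all 8 genes in the control at day 0 (95% exact binomial interval 3.86% to 4.66%), 72.6% at day 3 and 83.5% at day 5. In the Fkbp4 knockdown the share was 10.6% at day 0 (9.98% to 11.2%), 72.1% at day 3 and 83.4% at day 5. In the Fkbp5 knockdown it was 4.83% at day 0 (4.38% to 5.31%), 65.1% at day 3 (64.5% to 65.7%) and 76.2% at day 5 (75.8% to 76.6%). The Fkbp4 knockdown was thus above the other genotypes at day 0, and the Fkbp5 knockdown was below them at days 3 and 5, by more than counting error. These intervals cover counting error only, and with 1 library per condition the shares have no replicate error and no test. Counting Myl6b with the muscle chains left the order as it was, with 85.1%, 85.0% and 77.4% at day 5 in the control, the Fkbp4 knockdown and the Fkbp5 knockdown.

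**Figure D1:**
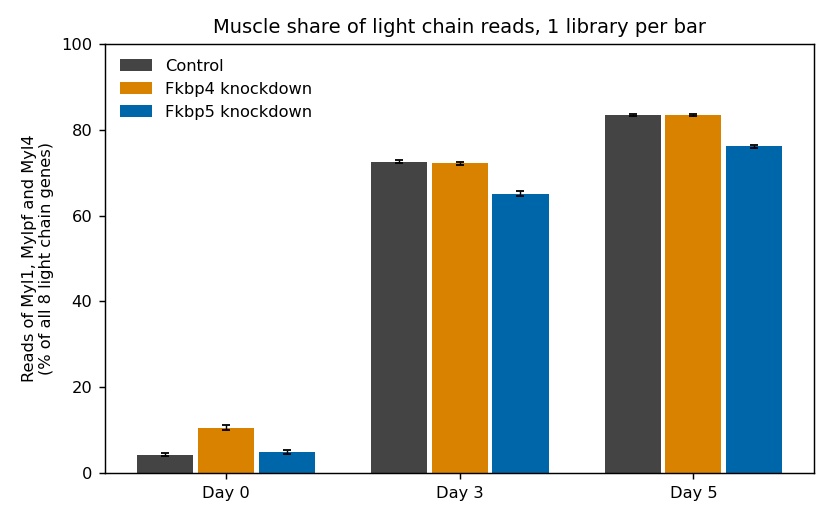
Share of light chain reads that came from Myl1, Mylpf and Myl4 (vertical axis, percent of the reads of all 8 genes) at each day, 1 bar per library with its 95% exact binomial interval. The Fkbp4 knockdown stands highest at day 0 with 10.6%, and the Fkbp5 knockdown lowest at day 3 with 65.1% and at day 5 with 76.2%.

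The summed level of the muscle chains carried that shift. It was 94.5 CPM in the control, 225.9 CPM in the Fkbp4 knockdown and 107.1 CPM in the Fkbp5 knockdown at day 0, and 9482, 9869 and 7818 CPM at day 5. The 5 other chains summed to 1880 to 2526 CPM over the 9 libraries. All 8 genes together took 0.214% to 0.225% of a library's reads at day 0 and 0.962% to 1.19% at day 5.

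Among the sarcomeric chains, the regulatory chain gene Mylpf had the highest level. It measured 55.2, 4879 and 6601 CPM at days 0, 3 and 5 in the control, 145.6, 4423 and 6280 CPM in the Fkbp4 knockdown, and 51.8, 2922 and 5482 CPM in the Fkbp5 knockdown. Every day 3 and day 5 library lay far above every day 0 library, and at day 0 the Fkbp4 knockdown stood above the other 2. Over the 3 genotypes Mylpf rose 51.2-fold from day 0 to day 3 (log2 5.68, SE 0.309, edgeR adjusted p = 2.37e-07). From day 3 to day 5 it was higher by 0.62 on the log2 scale, which did not pass the test (edgeR adjusted p = 0.176) but did without the Fkbp4 knockdown library of day 0 (0.0306).

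The essential chain gene Myl1 measured 33.4, 1324 and 1714 CPM in the control, 71.4, 979.7 and 2521 CPM in the Fkbp4 knockdown, and 47.4, 887 and 1587 CPM in the Fkbp5 knockdown. It rose 21.6-fold from day 0 to day 3 (log2 4.44, SE 0.255, edgeR adjusted p = 3.38e-07). Its further difference of 0.83 (SE 0.218) from day 3 to day 5 lay at the threshold (edgeR adjusted p = 0.0519), and the Fkbp4 knockdown showed the widest step, 2.57-fold. It passed on leaving out the Fkbp4 knockdown of day 0 (edgeR adjusted p = 0.0383), the control of day 0 (0.0266), the control of day 3 (0.0166) or the mitochondrially encoded genes (0.0445). Gene counts add the long and the short form of Myl1, so these values do not separate them.

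Myl4, the embryonic and atrial essential chain, was the only one of the 8 genes to pass the test between day 3 and day 5. It measured 5.96, 484.2 and 1167 CPM in the control, 8.83, 365.6 and 1067 CPM in the Fkbp4 knockdown, and 7.89, 225.5 and 749.2 CPM in the Fkbp5 knockdown. It rose 45.9-fold from day 0 to day 3 (log2 5.52, SE 0.224, edgeR adjusted p = 4.22e-08) and 2.84-fold from day 3 to day 5 (SE 0.169 on the log2 scale, edgeR adjusted p = 0.000903). The groups of libraries of the 3 days did not overlap. Of the reads of the essential chains Myl1 and Myl4, Myl4 took 11% to 15.2% at day 0 and 20.3% to 27.2% at day 3. At day 5 the share was 40.5% in the control (39.6% to 41.4%), 29.7% in the Fkbp4 knockdown (29.1% to 30.4%) and 32.1% in the Fkbp5 knockdown (31.2% to 33.0%).

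Myl6b, counted with the non-muscle chains, moved with the muscle chains in these cells. It measured 6.41, 151.2 and 183.6 CPM in the control, 12.6, 161.3 and 189.7 CPM in the Fkbp4 knockdown, and 8.16, 109.9 and 122.6 CPM in the Fkbp5 knockdown. It rose 15.5-fold from day 0 to day 3 (log2 3.96, SE 0.165, edgeR adjusted p = 4.71e-08), with a further log2 difference of 0.23 to day 5 that did not pass the test (edgeR adjusted p = 0.322). Its neighbour Myl6 on the same strand did not pass the test, and Myl6b went from 0.687% to 1.60% of the reads of the pair at day 0 to 14.3% to 28.0% at day 5.

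The other 4 non-muscle chains did not pass the test at either step. Myl6 measured 926.2, 906.9 and 473.2 CPM in the control, 775.1, 757.7 and 556.9 CPM in the Fkbp4 knockdown, and 887.9, 725.1 and 733.2 CPM in the Fkbp5 knockdown. Its fitted difference was -0.11 to day 3 (edgeR adjusted p = 0.577) and -0.45 from day 3 to day 5 (SE 0.157, edgeR adjusted p = 0.123), and the control and the Fkbp4 knockdown were lowest at day 5 while the Fkbp5 knockdown was not. Myl12a ranged from 843.1 to 1225 CPM and Myl12b from 199.2 to 306 CPM over the 9 libraries, with the highest value of each in the Fkbp5 knockdown at day 5. Without the Fkbp5 knockdown of day 3, both passed the test from day 0 to day 3, Myl12a at 0.34 and Myl12b at 0.34 on the log2 scale (edgeR adjusted p = 0.0301 and 0.0321). Myl9 ranged from 55.3 to 84.0 CPM, with no order of the days that held in all 3 genotypes. Myl12a made up 80.0% to 82.0% of the reads of Myl12a and Myl12b in every library, so the non-muscle regulatory chains kept nearly the same proportion throughout.

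Counted together, 4 of the 8 genes rose from day 0 to day 3, where 26.7% of the 12498 genes tested rose and 52.8% changed either way. The median log2 difference was 5.52 for the 3 muscle chains and 0.21 for the 5 other chains, beside -0.000652 over all genes tested. From day 3 to day 5, 1 of the 8 rose, where 3.74% of genes tested rose and 6.14% changed either way. Without the filter on low counts, Myl1 (edgeR adjusted p = 9.68e-10) and Mylpf (2.17e-06) also passed as higher at that step and Myl6 (0.00347) as lower. A change in bulk RNA does not tell more muscle cells apart from more RNA per cell. Since no condition was repeated, these p-values measure only the spread among 9 libraries once genotype and day are fitted.

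**Figure D2:**
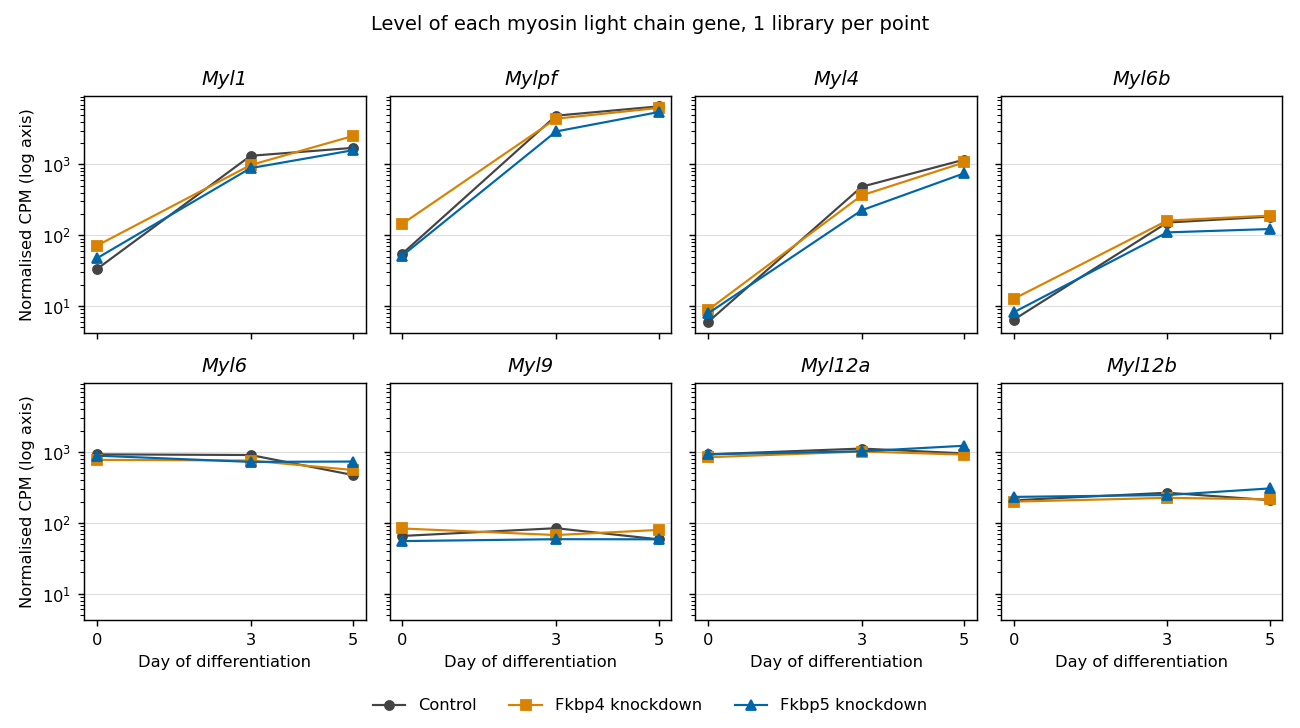
Normalised CPM (vertical log axis) of the 8 light chain genes against the day of differentiation, 1 point per library and 1 line per genotype. Myl1, Mylpf, Myl4 and Myl6b lie at 5.96 to 145.6 CPM at day 0 and at 109.9 to 6601 CPM later, while Myl6, Myl9, Myl12a and Myl12b lie at 55.3 to 1225 CPM throughout.

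Levels of different genes can be compared only per length, and the order depended on which length was used. Per kilobase (kb) of merged exons, Myl6 (243.2 to 290.6 CPM per kb) and Myl12a (250.9 to 276.1 CPM per kb) led at day 0, and their ranges over the 3 genotypes overlapped. Per kb of the longest transcript Myl12a (435.3 to 478.9) stood above Myl6 (255 to 304.7) at day 0, and per kb of the principal transcript, a length chosen after the data were seen, Myl6 (1166 to 1393) stood above Myl12a (435.3 to 478.9), without overlap in either case. Per kb of merged exons Mylpf led at day 3 with 2751 to 4594 CPM per kb and at day 5 with 5162 to 6215 CPM per kb, and Myl1 came second with 427.7 to 638.5 and 765 to 1216 CPM per kb. Neither overlapped the next gene. Below them at day 3 stood Myl12a and then Myl6, and the ranges of Myl12b, Myl6b, Myl4 and Myl9 each overlapped the next in order. Merged exons span 3187 bases for Myl6 and 4637 for Myl4, against 665 and 943 bases for their principal transcripts. Mylpf led at days 3 and 5 on all 3 lengths. Per kb of the principal transcript Myl6 at 1090 to 1364 CPM per kb overlapped Myl1 at 1105 to 1649 CPM per kb at day 3, and Myl4 moved up to the third place at day 5.

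With all 9 libraries and the filter on low counts, none of the 8 genes passed the edgeR test against the control in either knockdown over the 3 days. Exceptions arose without the filter. Myl4 in the Fkbp5 knockdown also passed without day 0, or without the day 0 library of that knockdown or of the control. In the Fkbp4 knockdown 0 of 8 passed, where 1.08% of genes tested did, and 0 had an unadjusted p under 0.05, as 16.5% of genes tested had. Without the filter Mylpf passed (edgeR adjusted p = 0.0266). DESeq2 and limma voom also called 0 of the 8 in that comparison. The fitted differences were 0.35 for Myl1 (SE 0.224, edgeR adjusted p = 0.461), 0.38 for Mylpf (SE 0.258, edgeR adjusted p = 0.492) and -0.14 for Myl4 (SE 0.183, edgeR adjusted p = 0.736). The positive value of Mylpf rested on day 0, since without the Fkbp4 knockdown library of day 0 it was -0.03.

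In the Fkbp5 knockdown 0 of 8 passed, where 2.18% of genes tested did, and 2, Myl4 and Myl6b, had an unadjusted p under 0.05, as 15.9% of genes tested had. Without the filter Myl4 (edgeR adjusted p = 2.35e-05), Mylpf (0.0116) and Myl6b (0.0445) passed. With it, Myl4 had a fitted difference of -0.68 (SE 0.188, edgeR adjusted p = 0.102), and DESeq2 (adjusted p = 0.0126) and limma voom (adjusted p = 0.0284) did call it. In edgeR it passed without the Fkbp5 knockdown of day 0 (adjusted p = 0.045), without the control of day 0 (0.0441) and without all of day 0 (0.0431). Its level was 1.32 times the control's at day 0, 0.466 times at day 3 and 0.642 times at day 5. Myl6b differed by -0.41 (SE 0.144, edgeR adjusted p = 0.19), Mylpf by -0.40 (SE 0.254, edgeR adjusted p = 0.494) and Myl1 by -0.14 (SE 0.224, edgeR adjusted p = 0.828). The 3 muscle chains had a median of -0.40 and the 5 other chains one of 0.08, beside 0.00539 over all genes tested.

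Set against each other, the knockdowns differed in 1 of the 8 genes, where 13.4% of genes tested differed. Myl6b was 1.53-fold lower in the Fkbp5 than in the Fkbp4 knockdown (log2 difference -0.61, SE 0.143, edgeR adjusted p = 0.0207), and it was lower at each of the 3 days, at 0.646, 0.682 and 0.646 times. This call was lost on leaving out the Fkbp4 knockdown of day 3 (edgeR adjusted p = 0.0585), the Fkbp4 knockdown of day 5 (0.0733) or the Fkbp5 knockdown of day 5 (0.146). With the mitochondrially encoded genes left out it passed (-0.61, edgeR adjusted p = 0.0192). Mylpf differed by -0.78 (SE 0.258, edgeR adjusted p = 0.0705), Myl9 by -0.41 (SE 0.14, edgeR adjusted p = 0.0759) and Myl4 by -0.54 (SE 0.189, edgeR adjusted p = 0.0861), none past the threshold. Without the filter on low counts Mylpf (edgeR adjusted p = 3.7e-10), Myl1 (0.000806), Myl4 (0.000973) and Myl9 (0.0071) passed as well. Leaving out 1 library brought 3 genes past it: Myl9 without the Fkbp4 knockdown of day 3 (0.0364) or the control of day 3 (0.0434), Myl4 without the Fkbp5 knockdown of day 0 (0.0382) or the control of day 0 (0.049), and Myl12b, higher by 0.41, without the Fkbp5 knockdown of day 3 (0.0414). Mylpf, Myl1, Myl4 and Myl9 were also lower in the Fkbp5 knockdown at all 3 days, Myl1 at 0.663, 0.905 and 0.629 times. Some of these daily ratios lay within counting error, with intervals that reached above 1. They were Myl4 at day 0 (0.894 times, 0.543 to 1.46) and Myl9 at day 3 (0.874 times, 0.743 to 1.03). The interval of Myl6b at day 0 also reached above 1 (0.406 to 1.01).

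**Figure D3:**
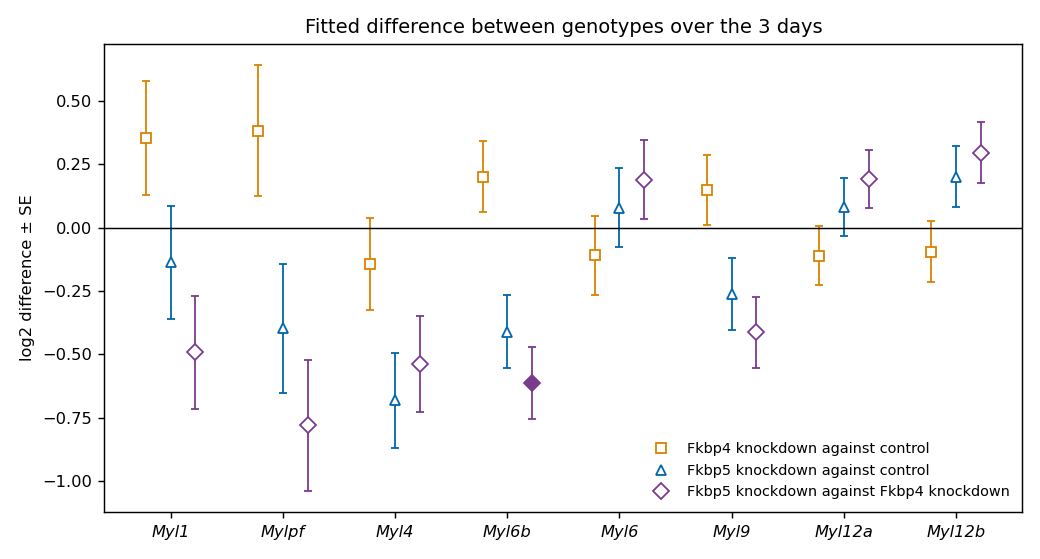
Fitted log2 difference between genotypes over the 3 days for each light chain gene (vertical axis), with bars of 1 standard error and filled symbols for differences that passed the edgeR test. The single filled symbol is Myl6b in the Fkbp5 against the Fkbp4 knockdown at -0.61.

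Taken day by day, the ratios of each knockdown to the control are described without a test, because each ratio rests on 1 library per side. At day 0 the Fkbp4 knockdown held 2.14 times the control's Myl1 (95% counting interval 1.77 to 2.61) and 2.64 times its Mylpf (2.28 to 3.06). These 2 of 8 genes passed a 2-fold line with at least 50 reads in 1 of the libraries, where 1.29% of genes did. Myl6b followed at 1.97 times, from 63 reads against 29. In the same pair of libraries Myog, the factor that drives terminal muscle differentiation, stood at 2.13 times. The embryonic heavy chain Myh3 stood at 3.34 times and Myod1 at 1.08 times. The 6 skeletal muscle markers summed to 1113 CPM there against 1162 CPM in the control. By day 3 the Fkbp4 knockdown stood at 0.74 times the control for Myl1, 0.907 times for Mylpf and 0.755 times for Myl4, and none of the 8 passed the 2-fold line (background 1.8%). All but Myl6b (1.07 times) were below the control at that day, with a median log2 ratio of -0.25 over the 8. At day 5 Myl1 was 1.47 times the control while Mylpf and Myl4 were 0.951 and 0.915 times, again with none past the line (background 1.86%).

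The Fkbp5 knockdown had none of the 8 past the 2-fold line at day 0 (background 1.78%). At day 3 all 8 genes were below the control (median log2 ratio -0.49), the same library that all but Myl6b fell below in the Fkbp4 knockdown. Myl4 passed the line at 0.466 times (0.431 to 0.503), where 2.16% of genes did. Mylpf stood at 0.599 times and Myl1 at 0.67 times, with Myog at 0.425 times and Myod1 at 0.92 times. At day 5 none passed the line (background 2.88%). Myl4, Myl6b, Mylpf and Myl1 were at 0.642, 0.668, 0.831 and 0.925 times the control, while Myl6, Myl12b and Myl12a were at 1.55, 1.46 and 1.28 times and Myl9 was level with it (1.0 times). That library also held the 10.1% of mitochondrial reads, and its part in these single-day ratios was not tested. Over the 3 days, with the mitochondrially encoded genes left out, the fitted differences of the Fkbp5 knockdown from the control were -0.70 for Myl4 (edgeR adjusted p = 0.0884), -0.41 for Myl6b, -0.40 for Mylpf and -0.15 for Myl1, and none of the 8 genes passed.

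**Figure D4:**
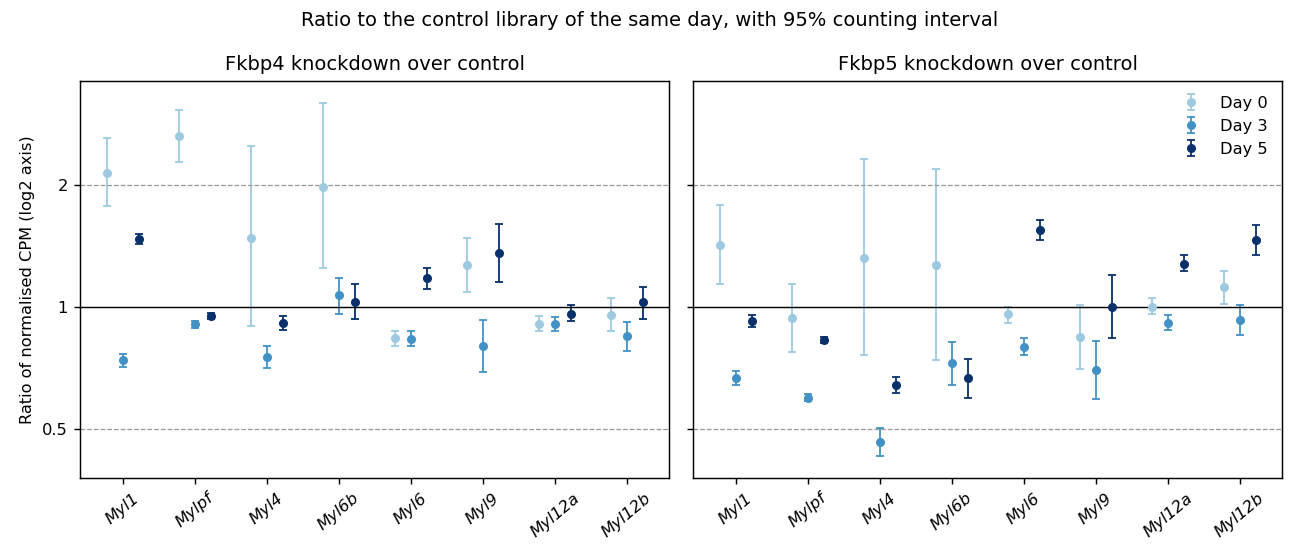
Ratio of normalised CPM in each knockdown to the control library of the same day (vertical log2 axis), with 95% counting intervals and dashed lines at 2-fold in either direction. Myl1 and Mylpf of the Fkbp4 knockdown lie above the upper line at day 0, and Myl4 of the Fkbp5 knockdown lies below the lower line at day 3.

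Whether a knockdown's difference changed between day 0 and the later days was tested with an interaction term, which left 2 residual degrees of freedom. For the Fkbp4 knockdown 0 of 8 genes passed, where 0.04% of genes tested did, and 4 had an unadjusted p under 0.05, as 3.09% of genes tested had. Mylpf had the largest shift of the 8, -1.51 on the log2 scale (SE 0.284, edgeR adjusted p = 0.407), followed by Myl1 at -1.03, Myl6b at -0.91 and Myl4 at -0.83, each of these 3 with an adjusted p of 1. DESeq2 called the shift of Mylpf (adjusted p = 0.000102) and limma voom did not, and edgeR called it without the Fkbp5 knockdown of day 3 (adjusted p = 0.0149) or of day 5 (0.0157), or without the filter on low counts (9.06e-06). For the Fkbp5 knockdown 0 of 8 passed, where 0.032% did, and 2 had an unadjusted p under 0.05, as 4.58% of genes tested had. Those were Myl4 at -1.27 (SE 0.383) and Myl6b at -0.87 (SE 0.313), and neither DESeq2 nor limma voom called Myl1, Mylpf, Myl4 or Myl6b. Results of these tools for the other chains were not recorded.

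The sarcomeric heavy chains, which the muscle light chains bind, also rose. Of 8 genes, 8 rose from day 0 to day 3 (median log2 4.5), where 26.7% of genes tested rose, and 8 rose again from day 3 to day 5 (median 2.29), where 3.74% did. Of the day 5 calls, those of Myh3 held in 12 of 17 alternatives, of Myh6 in 12 of 16 and of Myh2 in 14 of 16, and limma voom did not call Myh2, Myh6, Myh7b or Myh8 at that step. Leaving out the Fkbp4 knockdown of day 3 ended the calls of Myh3 and Myh6, the Fkbp4 knockdown of day 5 that of Myh6, and the Fkbp5 knockdown of day 5 or the control of day 3 or day 5 that of Myh3. Myh3, the embryonic form, measured 13.7, 1381 and 3266 CPM in the control, 45.7, 1748 and 3822 CPM in the Fkbp4 knockdown, and 10.0, 891.5 and 1807 CPM in the Fkbp5 knockdown. Myh4, the fastest adult form, measured 0.663, 8.99 and 233.7 CPM in the control, 0.201, 14.8 and 368.4 CPM in the Fkbp4 knockdown, and no read, 2.04 and 19.96 CPM in the Fkbp5 knockdown. On the log2 scale Myh4 rose by 4.85 to day 3 and by 4.52 (SE 0.197) from there to day 5. Its day 0 levels lay at or below the level of 3 reads, so the size of the first step is uncertain. Over the alternatives that step ranged from 3.9 to 6.04. At the second step Myh3 rose by 1.13 (SE 0.227). The difference between Myh3 and Myh4 was not tested.

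In the Fkbp5 knockdown 4 of the 8 heavy chains were lower than in the control, where 1.46% of genes tested were. They were Myh4 (log2 difference -3.38, SE 0.255, edgeR adjusted p = 0.000176), the slow chain Myh7 (-1.95, adjusted p = 0.0104), the perinatal chain Myh8 (-1.89, adjusted p = 0.0139) and Myh7b (-0.98, adjusted p = 0.0421). The median of the 8 was -1.80. These calls depended on single libraries. Without the Fkbp5 knockdown of day 5, which held the high share of mitochondrial reads, 0 of the 8 passed by edgeR and the median was -0.78, and without the control of day 3 or of day 5 the count was 2 or 1. With the mitochondrially encoded genes left out 4 of the 8 were lower, and without the filter on low counts 8 of 8. None of the 8 passed in the Fkbp4 knockdown by edgeR, DESeq2 or limma voom, where the median was 0.56 and 4 had an unadjusted p under 0.05, while 3 were higher without the filter. Between the knockdowns 7 of the 8 were lower in the Fkbp5 knockdown, where 6.21% of genes tested were, and the count was 4 without the Fkbp4 knockdown of day 5 and 5 without the Fkbp5 knockdown of day 5. The embryonic chain Myh3 lay at -1.36 (edgeR adjusted p = 0.00687). Sarcomeric heavy chain genes resemble each other in sequence, so reads may be split among them. The difference between heavy and light chains in their response was not tested.

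The non-muscle heavy chains, partners of Myl6, Myl9, Myl12a and Myl12b, did not move together. Of 3 tested, 1 rose and 1 fell to day 3, where 26.7% of genes tested rose and 26.1% fell. Myh10 fell by 0.74 (edgeR adjusted p = 0.00623) and Myh14 rose by 1.85 (edgeR adjusted p = 0.00113). Myh9, the main one by reads, ranged from 983.7 to 1513 CPM and differed by -0.08 to day 3 (SE 0.141, edgeR adjusted p = 0.644). None of the 3 passed in either knockdown by edgeR, DESeq2 or limma voom, and none had an unadjusted p under 0.05.

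**Figure D5:**
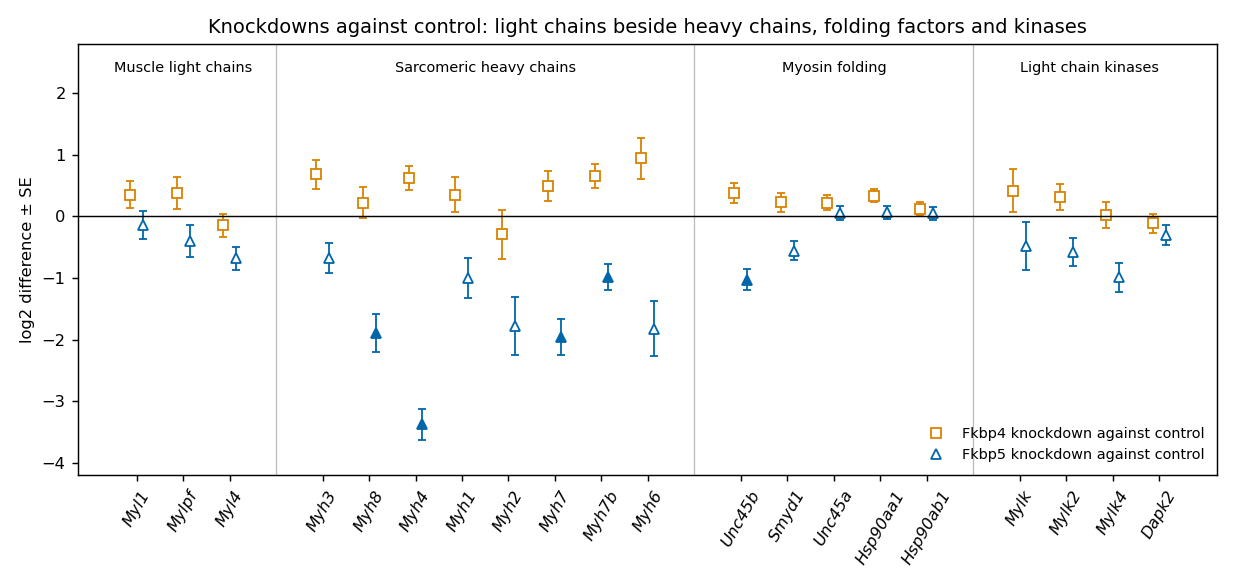
Fitted log2 difference of each knockdown against the control (vertical axis, bars of 1 standard error) for the muscle light chains, the sarcomeric heavy chains, 5 myosin folding genes and 4 light chain kinases, with filled symbols where the edgeR test passed. In the Fkbp5 knockdown 4 heavy chains and Unc45b are filled, with Myh4 lowest at -3.38, and no light chain is. The kinases drawn are the 4 of 9 tested that rose to day 3. Those not drawn lay at -0.34 to -0.10 in the Fkbp5 knockdown.

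Of the genes that fold myosin, Unc45b, the muscle chaperone of the heavy chain head, measured 0.442, 55.1 and 88.3 CPM in the control and 2.41, 67.7 and 109.8 CPM in the Fkbp4 knockdown. In the Fkbp5 knockdown it measured 0.526, 25.2 and 44.1 CPM, lower than the control by 1.02 on the log2 scale (SE 0.169, edgeR adjusted p = 0.0155). This call was lost without the Fkbp5 knockdown of day 5 or the control of day 3 or day 5. It was the only 1 of 5 folding genes to pass there, and Smyd1, a muscle methyltransferase that also acts on myosin, missed (log2 difference -0.55, edgeR adjusted p = 0.109). Between the knockdowns both were lower in the Fkbp5 knockdown, Unc45b by -1.41 and Smyd1 by -0.78 (edgeR adjusted p = 0.000988 and 0.0105). To day 3 Unc45b and Smyd1 rose by 5.39 and 4.39, while Hsp90aa1 and Hsp90ab1, the inducible and constitutive forms of Hsp90, fell by 0.59 and 0.29 on the log2 scale. At day 0 Unc45b lay below the level of 3 reads in the control and the Fkbp5 knockdown. Its rise ranged from 4.94 to 6.34 over the alternatives. The call of Hsp90ab1 held in 8 of 17 alternatives and was lost on leaving out any 1 library except the Fkbp4 knockdown of day 3 and the Fkbp5 knockdown of day 5.

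Of 9 tested kinases that phosphorylate the regulatory chains, 4 rose to day 3 and 5 did not pass, where 26.7% of genes tested rose. From day 3 to day 5, 3 rose, where 3.74% did, and none was lower at either step. Mylk2, the skeletal muscle light chain kinase, measured 5.08, 9.70 and 34.6 CPM in the control, 8.43, 15.0 and 32.5 CPM in the Fkbp4 knockdown, and 2.89, 9.54 and 18.6 CPM in the Fkbp5 knockdown. It rose by 1.08 to day 3 and by 1.31 from there to day 5 (edgeR adjusted p = 0.00355 and 0.00482). Mylk4 rose by 3.15, Dapk2, a death-associated kinase that can phosphorylate light chains, by 2.03, and Mylk, the smooth muscle and non-muscle kinase, by 1.82 to day 3. The day 5 call of Mylk2 held in 16 of 17 alternatives, that of Mylk in 11 and that of Mylk4 in 8. The last 2 were lost in limma voom and without the Fkbp4 knockdown or the control of day 3 or day 5, and that of Mylk4 also in DESeq2 and without the control of day 0. Between the knockdowns 3 of 9 were lower in the Fkbp5 knockdown, Mylk4 (-1.02, edgeR adjusted p = 0.0174), Mylk2 (-0.90, adjusted p = 0.0245) and Cdc42bpb (-0.44, adjusted p = 0.0319). That count was 0 without the Fkbp5 knockdown of day 5, 1 without its day 0 library or any single Fkbp4 knockdown library, and 5 without its day 3 library. Against the control none of the 9 passed in either knockdown by edgeR, with 3 and 0 at an unadjusted p under 0.05 in the Fkbp5 and the Fkbp4 knockdown. DESeq2 called 0 in both, limma voom 1 in the Fkbp5 knockdown and 0 in the other, and Mylk4 in the Fkbp5 knockdown came nearest (-0.99, adjusted p = 0.0581).

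Of 6 tested genes of the phosphatase that removes the phosphate and of its inhibitors, 2 rose to day 3, where 26.7% of genes tested rose. They were the muscle-type targeting subunit Ppp1r12b (1.33, edgeR adjusted p = 0.000365) and the inhibitor Ppp1r14c (2.06, adjusted p = 1.16e-05). From day 3 to day 5 Ppp1r12b rose by 0.75 and Ppp1r14b fell by 0.43, where 2.4% of genes tested fell. Each of these calls held in 9 of 17 alternatives, and both were lost on leaving out any 1 of the control libraries, the Fkbp4 knockdown of day 3 or the Fkbp4 knockdown of day 5. That of Ppp1r14b was also lost without the Fkbp5 knockdown of day 5. None of the 6 passed between genotypes by edgeR, DESeq2 or limma voom, with 1 at an unadjusted p under 0.05 in the Fkbp5 knockdown and 0 in the Fkbp4 knockdown. Without the filter on low counts 2 were lower in the Fkbp5 than in the Fkbp4 knockdown.

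Among the factors that switch muscle genes on, 6 of 6 tested rose to day 3, where 26.7% of genes tested rose. Myog rose by 3.83 (SE 0.28, edgeR adjusted p = 1.67e-06) and Myod1, which marks the myoblast before it differentiates, by 0.73 (SE 0.0893, edgeR adjusted p = 5.9e-05). Mef2d alone passed in the Fkbp5 knockdown against the control (-0.40, edgeR adjusted p = 0.0458), a call that was lost on leaving out any 1 of the 9 libraries, and Myog at -0.63 did not (edgeR adjusted p = 0.252). Between the knockdowns Mef2d and Mef2a were lower in the Fkbp5 knockdown by -0.52 and -0.50 (edgeR adjusted p = 0.00518 and 0.00723).

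Smooth muscle contractile genes, listed together with regulators such as Mrtfa and Mrtfb, did not move together. Of 10 tested, 4 rose and 2 fell to day 3, shares not far from the 26.7% and 26.1% of all genes tested. Acta2 rose by 1.38 (SE 0.18, edgeR adjusted p = 9.75e-05), Smtn by 0.99, Mrtfb by 0.49 and Mrtfa by 0.32, while Cnn2 fell by 1.01 and Cald1 by 0.70 on the log2 scale. The call of Mrtfa held in 11 of 17 alternatives and was lost in DESeq2 and without the Fkbp5 knockdown of day 0 or day 3 or the control of day 0. Tagln, at 58.8 to 221.1 CPM, did not pass (-0.50, edgeR adjusted p = 0.226), and Cnn1 had at most 12 reads in any library. Myl9 itself differed by 0.05 to day 3 (SE 0.14, edgeR adjusted p = 0.79).

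The 4 other light chain genes looked up, Myl2, Myl3, Myl7 and Myl10, had few or no reads. Myl3 had at most 6 reads, in the Fkbp4 knockdown at day 5, Myl2 at most 3 and Myl7 and Myl10 at most 1, and at day 0 none of the 4 had a read. A count of 0 allows up to 0.622 to 0.763 CPM at day 0, the level of 3 reads. None of the 4 had enough reads to be tested.

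The gene whose level followed Mylpf most closely over the 9 libraries was Tnnc1, which encodes the calcium sensor troponin C of slow and cardiac muscle, with Pearson r = 0.9993 across log2 CPM. Tnnc1 remained the closest after each day's mean was removed (r = 0.9908), followed by Acta1, the skeletal actin (0.981), and Mybph, a myosin-binding protein (0.9791). Myl4 was closest to Myoz2, a Z-disc protein, on both measures (r = 0.9977 and 0.9626). Myl1 was closest to Adamtsl5 (0.9959), Casq2, the calcium store protein (0.9955), and Klhl40 (0.9954), and Myl6b to Ppfia4 (0.9983), Ablim3 (0.9979) and Klhl40 (0.9978). These values are descriptions over 9 libraries that share the day, and many genes follow the day.

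Among the 8 genes themselves, Mylpf and Myl6b had r = 0.9953, Myl1 and Myl4 0.9929 and Myl1 and Mylpf 0.9927. With each day's mean removed, the closest pairs were Myl12a and Myl12b (0.9454), Myl6 and Myl12a (0.8892), Myl6 and Myl12b (0.8623) and Mylpf and Myl6b (0.8435). Myl9, flat over the days, was nearer to the muscle chains Myl1 (0.7957) and Mylpf (0.7561) than to Myl12a (-0.3236) on that measure. The pair of Myl12a and Myl12b shares sequence, which may tie their counts together. The nearest genes to Myl6, Myl9, Myl12a and Myl12b over the 9 libraries reached lower values, led by Gm6863 (0.9399), Rpl31-ps11 (0.926), 1600012H06Rik (0.9654) and Atg10 (0.966).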

How the data were processed

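Messenger RNA of C2C12 cells was measured in 9 libraries, 1 per genotype (Fkbp4 knockdown, Fkbp5 knockdown, control) and day (0, 3, 5). The authors deposited raw counts of reads per Ensembl gene, and per the submitters' processing notes the build was mm10 and the tools were featureCounts 1.4.6, Subread, HISAT2 2.0.2 and CASAVA 1.8. Strand setting and annotation release are not given in the sources used here. Of 47728 gene IDs, 47309 matched GENCODE release 21.

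Counts were tested with edgeR 4.0.16 (R 4.3.3): TMM scaling (factors 0.941 to 1.038), filterByExpr by genotype (12498 genes), a quasi-likelihood fit with genotype and day as additive terms and 4 residual degrees of freedom, and Benjamini-Hochberg adjustment over all genes tested, with calls at adjusted p under 0.05. Interaction models added genotype by late day. The code was tested on simulated data. Similarity used log2 CPM with a prior count of 2, over 10895 genes with a mean of at least 5 CPM. Alternatives were RLE scaling, no filter, a mean of at least 5 CPM, DESeq2 1.42.0, limma voom 3.58.1, mitochondrial genes left out, each library or day left out, 6 libraries alone and 1 term in the model. Counting the lists under these settings was added after seeing the data.

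The members and gene lists were chosen with earlier results of these data known. Named genes were the 8 members, the 3 genes most like each, both knockdown targets, and up to 4 called genes of each list beside a fixed set of myosin partners. The levels are read totals of 3932372 to 5568486 per library, so a count of 0 allows about 0.539 to 0.763 CPM (3 counts). Coordinates and transcript lengths are from GENCODE on GRCm38, and promoter windows are from RefSeq on GRCm38.p6.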

Additional observations from a re-analysis of the deposited data

How the results depend on the processing

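Of the tests on the 8 genes, the rises of Myl1, Mylpf, Myl4 and Myl6b to day 3 and of Myl4 to day 5 passed under each of 17 alternatives, and Myl6b between the knockdowns passed in 14 of 20. Myl4 in the Fkbp5 knockdown against the control passed in 6 of 20 (adjusted p from 2.35e-05 to 1), and the Mylpf shift in the Fkbp4 knockdown in 4 of 12 (9.06e-06 to 0.765). The causes were not tested. Without the low-count filter, calls over all genes numbered 866 (Fkbp5 knockdown against control, 272 in the report), 690 (Fkbp4 knockdown, 135), 1578 (day 5 against day 3, 767), 107 (Fkbp5 interaction, 4) and 95 (Fkbp4 interaction, 5). DESeq2 called 222 for the Fkbp4 knockdown, 1111 between the knockdowns (1671) and 13 for the Fkbp4 interaction, and limma voom called 1 and 2 for the Fkbp5 and Fkbp4 interactions. With day 0, day 3 or day 5 left out, the Fkbp5 knockdown had 128, 41 and 36 calls and the Fkbp4 knockdown 86, 4 and 12, and between the knockdowns 806 remained without day 0 and 250 without day 5. Only the 6 libraries of the 2 genotypes gave 376 for the Fkbp4 knockdown and 952 between the knockdowns. With 1 term in the model there were 3, 0 and 4 calls for the Fkbp5 knockdown, the Fkbp4 knockdown and their difference, and 127 from day 3 to day 5.

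Leaving out 1 library at a time gave 40 to 296 calls for the Fkbp5 knockdown against control, 4 to 259 for the Fkbp4 knockdown, 487 to 2106 between the knockdowns, 232 to 924 for day 5 against day 3, 7 to 35 for the Fkbp5 interaction and 5 to 32 for the Fkbp4 interaction. Each lowest count came without, in that order, the Fkbp5 knockdown of day 5, the control of day 3, the Fkbp5 knockdown of day 5, the control of day 5, the Fkbp5 knockdown of day 5 and the control of day 5.

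None of the values that changed sign had passed the test, and on leaving out 1 library they ranged as follows on the log2 scale. In the Fkbp5 knockdown against control Myl1 went from -0.39 to 0.24, Myl6 from -0.15 to 0.23 and Myl12a from -0.049 to 0.17. In the Fkbp4 knockdown against control Mylpf went from -0.031 to 0.64, Myl4 from -0.31 to 0.11, Myl6 from -0.32 to 0.034 and Myl12b from -0.21 to 0.022. Between the knockdowns Myl6 went from -0.016 to 0.34. From day 0 to day 3 Myl6 went from -0.24 to 0.059 and Myl9 from -0.12 to 0.23. From day 3 to day 5 Myl9 went from -0.27 to 0.085, Myl12a from -0.17 to 0.0496 and Myl12b from -0.18 to 0.086. Mylpf in the Fkbp4 knockdown was also -0.11 without day 0 and -0.088 with 1 term in the model. Without day 3, Myl1 in the Fkbp5 knockdown was 0.15 and Myl4 in the Fkbp4 knockdown 0.054. Without day 5, Myl6 and Myl12a in the Fkbp5 knockdown were -0.19 and -0.061.

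The day was a term of the model, so genotypes were compared within days, and the fit with genotype as the only term is the one without that pairing. A setting that left an arm with few libraries borrowed the spread of the others, and the low counts of Myl4 and Myl6b at day 0 (27 to 63 reads) limit what can be seen there.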
